A study of Mus musculus with 9 samples.

Results

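The genes described here are 10 markers of ependymal cells, the ciliated cells that line the ventricles of the brain: Foxj1, Ccdc153, Tmem212, Rarres2, Dynlrb2, Cfap126, Enkur, Dnali1, Rsph1 and Tekt1. They were taken by gene symbol, and all their transcripts were summed per gene. All 10 passed the filter on low counts (CPM over 1 in 4 or more libraries), as did 15340 of the 35975 genes with a quantified transcript. In the log2 CPM table that the authors deposited, 9 stood under these symbols and Cfap126 stood under its older symbol 1700009P17Rik.

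RNA of the mediobasal hypothalamus (MBH), the floor of the hypothalamus around the third ventricle, was sequenced in wild-type C57Bl/6 male mice at postnatal day 21 (P21), the day of weaning. The dams drank plain water (CTRL) or water that held 1% carboxymethylcellulose and 1% polysorbate 80 (Emul) before mating, during gestation and during lactation. The pups stayed with these dams until weaning, and the methods do not exclude that they took up emulsifiers directly. The 4 CTRL and the 5 Emul libraries came, by the methods, from 4 and 5 litters.

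Ependymal cells carry tufts of motile cilia that move cerebrospinal fluid. The core of each cilium, the axoneme, is a ring of doublet microtubules around a central pair. Dynein arms on the doublets are the motors, radial spokes and nexin links pass signals between doublets and central pair, and filaments inside the doublets stiffen them. Foxj1 and the RFX factors switch on the genes that build this structure. In the MBH the upper wall of the ventricle is ciliated, whereas its lower wall and floor are lined by tanycytes, which have few motile cilia.

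The libraries held 28245360 to 46067534 estimated counts. CTRL 3 had the lowest total and Emul 4 the highest. CTRL 3 also lay apart from the other libraries in a principal component analysis of all genes, at 21.8 on the first component against 4.29 to 6.77 for the other CTRL libraries and -18.0 to 2.09 for Emul. The hypothalamic origin of the tissue was checked with 16 genes, of which 15 passed the filter. Pomc was at 44.9 TPM (abundance scaled for transcript length and for the library total), Agrp at 41.4 TPM and Nkx2-1 at 24.9 TPM on average, whereas Kiss1, under the filter, was at 0 to 1.47 TPM. Slc6a3, the dopamine transporter, varied most widely of those past the filter, from 2.44 to 51.3 TPM, with a log2 CPM of 2.04 to 6.46 in CTRL and 3.24 to 5.56 in Emul. Of the choroid plexus, the other multiciliated epithelium of the ventricles, 11 of 20 markers passed the filter. Its defining genes Ttr and Folr1 did not, at 0.687 to 2.04 TPM and 0.908 to 3.0 TPM, while Ace at 22.7 TPM, Tmem72 at 16.9 TPM and Prlr at 10.7 TPM on average were the most abundant of the list.

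Promoters of 7 of the 10 genes were found in the RefSeq table of GRCm38.p6, which holds the bases around each start site, in 10 windows. The half-site of the RFX factors, GTTGCC on either strand (GGCAAC), was in 4 of the 10 windows, of 4 genes. It was in 12.5% of all 32851 promoter windows and in 62 of 134 windows (46.3%) of the other motile cilium genes. A match is a description of letters, not a binding site. The 60 bases that hold it are shown for these 4 genes, 5′ to 3′ on the strand of the gene with the half-sites in capitals. They are printed because these 4 genes, not all members, share this sequence feature with many other cilium genes. They lie at chr2:21205366-21205425 (minus strand) for Enkur, chr8:116504914-116504973 (plus) for Dynlrb2, chr9:44240498-44240557 (plus) for Ccdc153 and chr11:72361883-72361942 (minus, inside the annotated gene but in no exon) for Tekt1.
Enkur: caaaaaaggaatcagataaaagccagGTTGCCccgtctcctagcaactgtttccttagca
Dynlrb2: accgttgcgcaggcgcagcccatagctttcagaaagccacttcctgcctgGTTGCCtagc
Ccdc153: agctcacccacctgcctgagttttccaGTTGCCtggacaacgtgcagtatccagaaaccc
Tekt1: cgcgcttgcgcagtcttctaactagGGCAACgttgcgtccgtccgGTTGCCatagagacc
Counted from the start site, the first base of the half-site was at -34 in Enkur, -51 in Dynlrb2 and -152 in Ccdc153, and Tekt1 had it at -35 on the opposite strand and again at -15. A longer form, GTTGCCATG, was in 0 of the 10 windows (0.773% of all and 3.73% of the list), and the forkhead core TGTTTAC in 0 of 10 (3.65% of all and 5.22% of the list), which says only that these letters are not in these windows.

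The ependymal genes were present in every library at moderate levels. On the TPM scale, which corrects for transcript length and so allows genes to be compared, Rarres2 had the highest level, at 30.9 ± 4.56 TPM (SD, n = 9), and Dnali1 the lowest, at 4.34 ± 0.602 TPM (SD, n = 9). In between lay Ccdc153 at 27.2 ± 6.22 TPM, Dynlrb2 at 17.9 ± 3.02 TPM, Foxj1 at 14.3 ± 1.75 TPM, Tmem212 at 13.1 ± 2.03 TPM, Enkur at 12.2 ± 1.38 TPM, Cfap126 at 11.6 ± 1.81 TPM, Rsph1 at 10.9 ± 2.08 TPM and Tekt1 at 7.83 ± 1.53 TPM. Not every step of this order held in each library. Dynlrb2 stood above Foxj1, and Tekt1 above Dnali1, in 9 of 9 libraries. Neighbours from Foxj1 to Rsph1 kept their order in 6 or 7 of 9 libraries only, and their levels overlapped.

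The 10 genes together summed to 130.1, 145.5, 192.2 and 153.8 TPM in CTRL 1 to 4 and to 144, 125.9, 140, 170.4 and 149.7 TPM in Emul 1 to 5. The groups overlapped, with CTRL 3 highest and Emul 2 lowest. Their mean sum was 155 ± 26.5 TPM in CTRL (SD, n = 4) and 146 ± 16.2 TPM in Emul (SD, n = 5). The direction of this difference depended on the scale. Over all genes tested, the median ratio of Emul to CTRL was -0.10 on the log2 scale of mean TPM, against -0.08 for the ependymal genes. With the TMM scaling used for the tests, the median was 0.00 over all genes and 0.03 over the 10. In bulk tissue, fewer ciliated cells and less RNA per ciliated cell cannot be told apart.

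Emul was compared with CTRL gene by gene with limma-voom, fitted on all 15340 genes. No ependymal gene was called in either direction. At an unadjusted p-value under 0.05, 0 of 10 were called by limma-voom, where 15.8% of all genes were (6.84% higher and 8.99% lower in Emul). The edgeR quasi-likelihood test called 0 of 10 (16.1% of all genes), and DESeq2 called 0 of 10 (15.2% of all genes). Past the cutoff that also asks for a 1.5-fold change, 0 of 10 were found (0.469% of all genes), and after Benjamini-Hochberg adjustment limma-voom again called 0 of 10 (0.117% of all genes). The values of the groups overlapped for 10 of 10, where 6.60% of all genes had groups without overlap. The log2 fold changes, Emul over CTRL, ran from -0.10 for Foxj1 to 0.24 for Cfap126, and 6 of 10 were above 0, as were 50.8% of all genes. Single libraries changed these counts, by limma-voom at an unadjusted p-value under 0.05. Cfap126 was higher without CTRL 3 (5.24% of all genes were higher; the median of the 10 was 0.09) and without CTRL 4 (5.13%). Without Emul 2, Cfap126 and Tekt1 were higher (6.90% of all genes; median 0.10). Without CTRL 1, Foxj1 was lower (7.62% of all genes; median -0.03).

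A p-value over the threshold does not show that levels were equal, so the intervals matter. The 95% intervals of all 10 genes, which are not adjusted for the number of genes, lay between a ratio of 0.795, the lower end for Rsph1, and 1.47, the upper end for Tekt1. A 1.5-fold difference in either direction lay outside the interval of each gene.

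**Figure D1:**
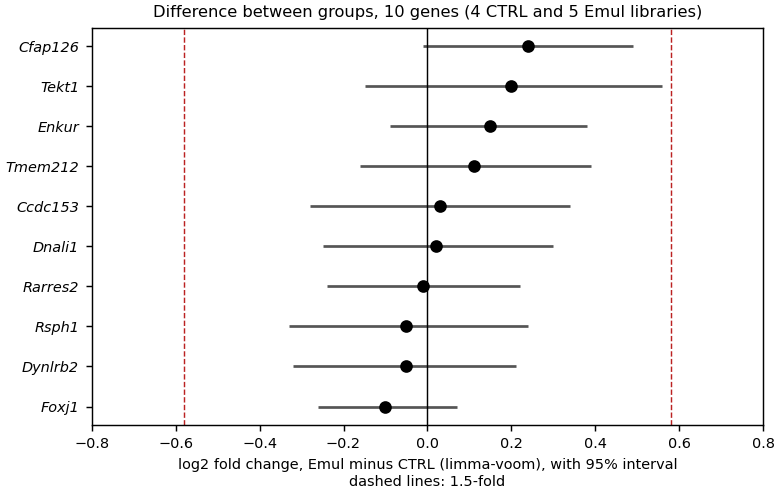
Log2 fold change of each ependymal gene, Emul over CTRL, by limma-voom on 9 libraries (points) with its 95% interval (lines). The dashed lines mark a 1.5-fold change, 0.58 on the log2 scale, and no interval reaches them. The interval of Cfap126 starts at -0.01 and the other intervals hold 0 as well.

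Foxj1 (chr11:116330704-116335399, minus strand, coordinates of mm10 here and below) encodes the forkhead transcription factor that drives motile ciliogenesis and stays on in mature ependymal cells. It was the most deeply counted of the 10, with 583 to 926 estimated counts a library. Its log2 CPM (counts scaled to the library total) was 4.06, 4.29, 4.36 and 4.43 in CTRL 1 to 4 and 4.12, 4.17, 4.08, 4.34 and 4.20 in Emul 1 to 5. The lowest and the highest value both belonged to CTRL libraries, and the Emul values fell in between. The log2 fold change was -0.10 (SE 0.0772), with a limma-voom p = 0.24 and an exact permutation p = 0.302. Without CTRL 1, the lowest library, it was -0.17 and past the unadjusted threshold (adjusted p = 0.303 by limma-voom with Benjamini-Hochberg adjustment).

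Dnali1 (chr4:125055338-125065703, minus strand) encodes a light intermediate chain of the inner dynein arms. Its log2 CPM was 2.02, 2.13, 2.25 and 2.34 in CTRL 1 to 4 and 2.34, 1.83, 2.14, 2.33 and 2.41 in Emul 1 to 5. Emul 2 was the lowest library and the remaining values of both groups mixed, at a log2 fold change of 0.02 (SE 0.127). The annotated gene shares 43 bases with Gnl2 on the other strand, and whether the counting used strand is not given in the sources used here.

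Dynlrb2 (chr8:116504974-116515915, plus strand) encodes a dynein light chain of the roadblock type that is enriched in ciliated cells. In CTRL 1 to 4 its log2 CPM was 1.51, 1.85, 2.09 and 1.81, and in Emul 1 to 5 it was 1.61, 1.74, 1.70, 1.94 and 1.70. The 5 Emul values lay inside the span of the CTRL values, with a log2 fold change of -0.05 (SE 0.122). Its widely expressed relative Dynlrb1, a dynein light chain of cells in general, was at 353 TPM against 17.9 TPM for Dynlrb2. For Dynlrb1 the log2 fold change was 0.17 (SE 0.0473, limma-voom p = 0.0043, exact permutation p = 0.0317), with a log2 CPM of 6.49 to 6.58 in CTRL and 6.58 to 6.82 in Emul. Whether the pair differed in their fold changes was not tested.

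Rsph1 (chr17:31255019-31277383, minus strand) encodes a protein of the radial spoke head. It read 2.45, 2.39, 2.98 and 2.62 log2 CPM in CTRL 1 to 4 and 2.55, 2.23, 2.55, 2.78 and 2.60 in Emul 1 to 5. CTRL 3 was the highest and Emul 2 the lowest library. Those libraries were 0.76 apart, and between the groups the log2 fold change was -0.05 (SE 0.131).

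Tekt1 (chr11:72344722-72362442, minus strand) encodes a tektin, one of the filament proteins inside the doublet microtubules. Its log2 CPM was 2.10, 2.08, 2.55 and 2.29 in CTRL 1 to 4 and 2.50, 1.91, 2.46, 2.60 and 2.76 in Emul 1 to 5. It had the widest span of the 10, 1.80-fold between Emul 2 and Emul 5, both of 1 group. The log2 fold change was 0.20 (SE 0.162) with a limma-voom p = 0.232 and an exact permutation p = 0.318. Without Emul 2 it was 0.34 and past the unadjusted threshold, with an adjusted p = 0.208 by limma-voom with Benjamini-Hochberg adjustment, the smallest reached by any ependymal gene under any alternative.

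Enkur (chr2:21180731-21205365, minus strand) encodes enkurin, which binds the inner wall of the doublets. Its log2 CPM was 2.23, 2.18, 2.62 and 2.61 in CTRL 1 to 4 and 2.46, 2.47, 2.61, 2.55 and 2.66 in Emul 1 to 5. CTRL 1 and CTRL 2 lay below all Emul libraries, while CTRL 3 and CTRL 4 lay among them. The log2 fold change was 0.15 (SE 0.108) with a limma-voom p = 0.197 and an exact permutation p = 0.286.

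Cfap126 (chr1:171113918-171126967, plus strand), also called Flattop, encodes a protein of basal bodies and doublet microtubules and came closest to the threshold. Its log2 CPM was 1.57, 1.82, 2.08 and 2.03 in CTRL 1 to 4 and 2.13, 1.93, 2.19, 2.11 and 2.18 in Emul 1 to 5. CTRL 1 and CTRL 2 were the lowest libraries, and CTRL 3 and CTRL 4 lay between Emul 2 and the other Emul libraries. At 0.24 (SE 0.114) the log2 fold change had a limma-voom p = 0.0571, an adjusted p = 0.333 by limma-voom with Benjamini-Hochberg adjustment, and an exact permutation p = 0.0794. It crossed the unadjusted threshold in 4 of 22 settings, namely with sample quality weights and without CTRL 3, CTRL 4 or Emul 2, and its log2 fold change stayed between 0.14 and 0.30 in all 22.

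Ccdc153 (chr9:44240676-44247306, plus strand) encodes a coiled-coil protein of the axoneme and is among the genes most used to mark ependymal cells. Its log2 CPM was 2.91, 3.22, 3.51 and 2.85 in CTRL 1 to 4 and 2.99, 2.99, 2.98, 3.50 and 3.13 in Emul 1 to 5. A single library in each group, CTRL 3 and Emul 4, stood well above the others. The log2 fold change was 0.03 (SE 0.143), and the sign turned under several alternatives.

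Tmem212 (chr3:27866066-27896368, minus strand) encodes a membrane protein that serves as an ependymal marker. It read 1.64, 1.73, 2.20 and 2.07 log2 CPM in CTRL 1 to 4 and 1.88, 1.92, 2.03, 2.21 and 1.96 in Emul 1 to 5. CTRL 1 and CTRL 2 lay below all Emul libraries, and CTRL 3 was nearly level with Emul 4 at the top. The log2 fold change was 0.11 (SE 0.127) with a limma-voom p = 0.396 and an exact permutation p = 0.492.

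Rarres2 (chr6:48569696-48572789, minus strand) encodes chemerin, a secreted chemoattractant that is not known as a part of the cilium. In CTRL 1 to 4 its log2 CPM was 3.31, 3.25, 3.60 and 3.41, and in Emul 1 to 5 it was 3.51, 3.32, 3.12, 3.62 and 3.22. The CTRL values lay inside the Emul span, with a log2 fold change of -0.01 (SE 0.106). The annotated gene overlaps Lrrc61 on the other strand over 1027 bases, introns included, and Lrrc61 had 1076 counts on average against 326 to 554 for Rarres2.

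**Figure D2:**
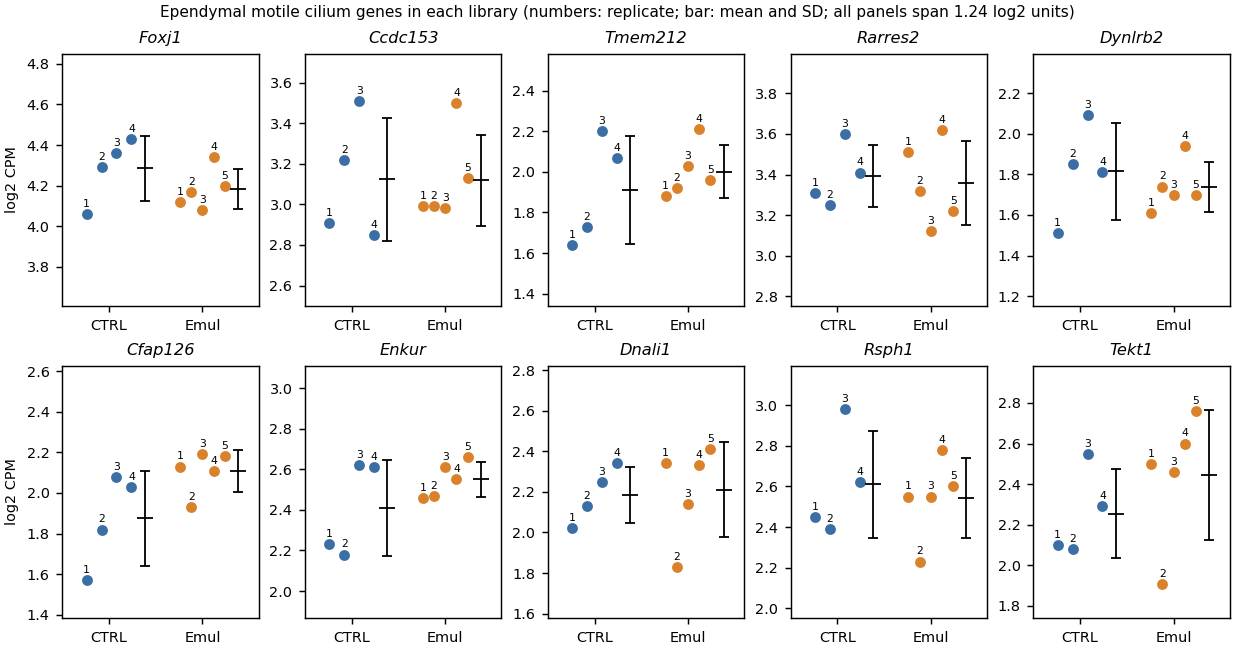
Log2 CPM of the 10 ependymal genes in each library (points, numbered by replicate, CTRL in blue and Emul in orange) with the mean and SD of each group (black bars). All panels span the same number of log2 units. CTRL 3 and Emul 4 are at or near the top and CTRL 1 at or near the bottom in most panels. Emul 2 is the lowest library in 3 panels (Dnali1, Rsph1 and Tekt1) and nearer the middle in most others. The groups overlap in all 10.

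The libraries differed from each other inside both groups. Each gene was centred on its mean over the 9 libraries and the 10 deviations were averaged per library. This mean was -0.23, -0.11, 0.22 and 0.04 in CTRL 1 to 4 and 0.00, -0.16, -0.02, 0.19 and 0.07 in Emul 1 to 5 on the log2 scale. In CTRL 3 and in Emul 4, 10 of 10 genes were above their own mean, and in CTRL 1 and Emul 2, 0 of 10 were. The share of all genes above their own mean in these libraries is not given here. On average over the 10, CTRL 3 stood at 1.16-fold and CTRL 1 at 0.854-fold of the mean over libraries. The group means were -0.02 ± 0.19 in CTRL (SD, n = 4) and 0.02 ± 0.13 in Emul (SD, n = 5).

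Counting error is a part of this spread. Poisson error alone gives an SD of 0.0533 for Foxj1 on the log2 scale, where the SD within groups was 0.129, and 0.102 for Tekt1, where it was 0.281. It weighs more for genes with fewer counts, at 0.126 against 0.181 for Dynlrb2 and 0.116 against 0.171 for Cfap126. In Emul alone, the SD of Cfap126 (0.11), Dynlrb2 (0.12) and Enkur (0.09) did not exceed their counting SD (0.0978 for Enkur). The 2 libraries with the highest means were those with the lowest and the highest total count, and over the 9 libraries the mean of the genes had r = -0.285 (rho = -0.15) with the total. With the first principal component of all genes it had r = 0.297 (rho = 0.217). With the log2 CPM of Slc6a3 it had r = -0.557 (rho = -0.517). The part of depth or of the uneven Slc6a3 level in this spread was not tested.

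The 10 genes moved together from library to library. Over the 9 libraries, the 45 pairs of genes had a median Pearson r of 0.539, from 0.134 for Rarres2 with Cfap126 to 0.853 for Dnali1 with Tekt1, and 45 of 45 were above 0. By rank, Cfap126 was below 0 with Rarres2 (rho = -0.133), Dynlrb2 (-0.0833) and Foxj1 (-0.05), and the remaining pairs were above 0. The share of pairs above 0 among all genes is not given here. By Pearson r, the highest pair was Dnali1 with Tekt1. Next came Cfap126 with Enkur at 0.845, Tmem212 with Enkur at 0.839 and Ccdc153 with Dynlrb2 at 0.816. With the group means removed, the median was 0.577. All genes share the same libraries and their depth, so the pairs are not independent of each other. Without CTRL 1 and CTRL 3, the libraries farthest from the median, on the mean of these same genes, the median was 0.363 and 37 of 45 pairs were above 0, a fall that leaving out the extremes brings about in part by construction. Against the mean of the other 9 genes, Tmem212 followed most closely at r = 0.862 (rho = 0.833, n = 9 libraries) and Rsph1 at 0.857 (rho = 0.917). Rarres2 followed least, at 0.530 (rho = 0.417). Foxj1 was next by Pearson r, at 0.561, but not by rank (rho = 0.7), where Cfap126 was next (rho = 0.533).

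Genes outside the 10 were ranked by how closely their log2 CPM followed that mean over the 9 libraries. The first 10 of 15330 were Cfap97 (r = 0.976), Tctex1d4 (0.97), Mre11a (0.949), Dnah3 (0.944), Ccdc81 (0.942), Myb (0.929), Spag17 (0.923), Dnah9 (0.923), Mns1 (0.920) and Slc9a8 (0.914). Dnah3 and Dnah9 are heavy chains of axonemal dyneins, Spag17 is a protein of the central pair, Mns1 lies inside the doublets, and Myb is a transcription factor of multiciliated precursors as well as of blood cells. Tctex1d4 is a dynein light chain of the Tctex type, whereas Mre11a is a nuclease of DNA repair and Slc9a8 a sodium and proton exchanger. These are the highest of many values and are given with no test. Without CTRL 1 and CTRL 3 they ranged from 0.854 for Myb to 0.950 for Cfap97.

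**Figure D3:**
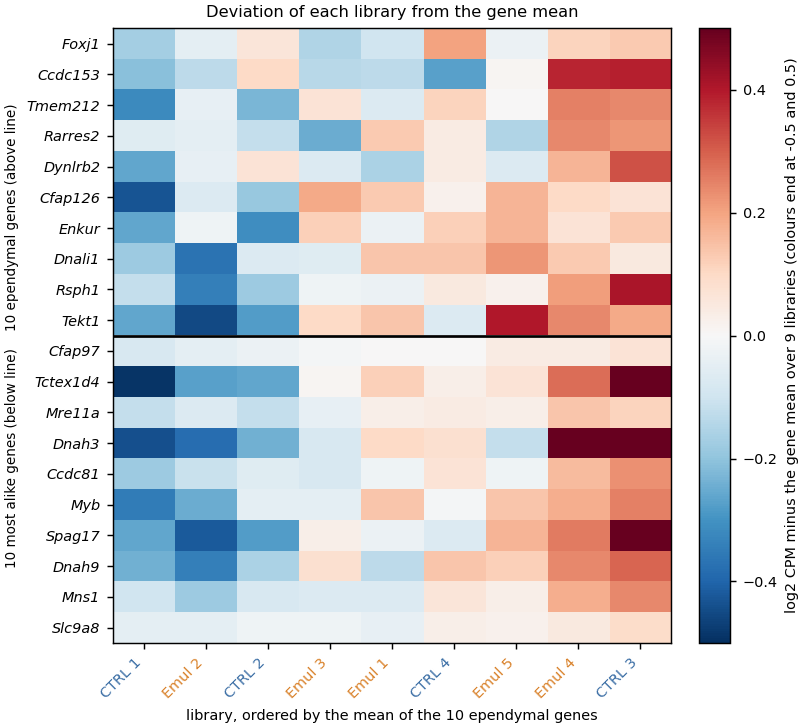
Log2 CPM of each library minus the mean of the gene over 9 libraries, for the 10 ependymal genes (above the line) and the 10 genes most like their mean (below the line). Libraries run from the lowest mean, CTRL 1 at -0.23, to the highest, CTRL 3 at 0.22, and labels are blue for CTRL and orange for Emul. Blue cells at the left and red cells at the right are shared by most rows, and the groups are interleaved.

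A list of 143 other motile cilium genes, of which 127 passed the filter, was read against the same mean. Their median r was 0.630, and 79 of 127 (62.2%) were over 0.5, against a median of -0.0106 and 9.0% over 0.5 among all 15330 genes. Among the 100 most alike genes, 28 were on this list (28.0%), which makes up 0.828% of the genes ranked. Over the 7 libraries without CTRL 1 and CTRL 3, the median was 0.46, with 61 of 127 over 0.5 against 11.2% of all genes. Lists of other cells and structures lay lower. The median r was 0.258 for 31 genes of intraflagellar transport, which also serves the single primary cilium of neurons, 0.119 for astrocyte genes, 0.0770 for tanycyte genes, -0.0639 for hypothalamic genes, -0.0925 for choroid plexus genes and -0.284 for meningeal genes.

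**Figure D4:**
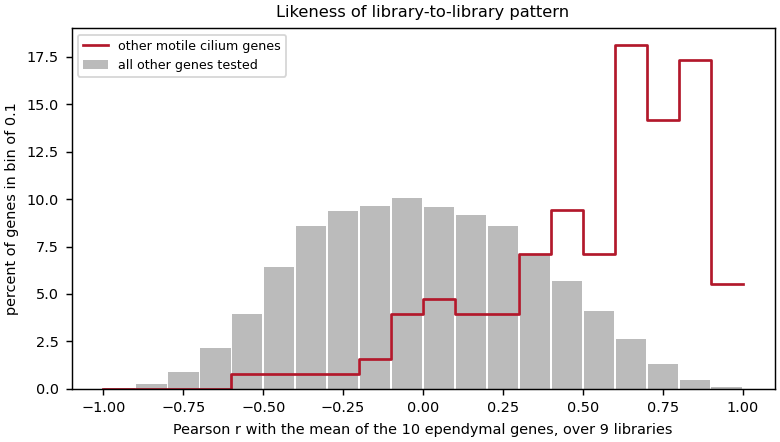
Percent of genes in bins of Pearson r with the mean of the 10 ependymal genes over 9 libraries, for 127 other motile cilium genes (red line) and all other genes tested (grey bars). The grey bars centre near 0, with a median of -0.0106 over all genes, whereas the red line has most of its genes over 0.5 and a median of 0.630.

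The groups were then compared over the other motile cilium genes. At an unadjusted p-value under 0.05 by limma-voom, 5 of 127 were higher and 3 were lower in Emul, 6.30% in all beside 15.8% of all genes. Without CTRL 3, 10 were higher (5.24% of all genes were), and without Emul 2, 8 were (6.90% of all genes). Without Emul 5, 3 were higher, and the share of all genes in this setting is not given here. Without CTRL 1, where 7.62% of all genes were lower, 6 of the listed genes were. The most abundant of them after Dynlrb1, Tppp3 at 206 TPM and Cfap20 at 58.9 TPM, had log2 fold changes of -0.01 (SE 0.0419) and 0.06 (SE 0.0415). None passed the 1.5-fold cutoff (0.469% of all genes) and none passed Benjamini-Hochberg adjustment. Their median log2 fold change was 0.03. By structure, 0 of 17 central pair genes, 0 of 11 assembly factors of the dynein arms and 0 of 31 genes of intraflagellar transport were called, the last led in abundance by the motor subunits Kifap3 at 129 TPM (log2 fold change 0.06) and Kif3a at 123 TPM (0.05). Of 24 dynein arm genes only Dynlrb1 was, of 22 genes of spokes and nexin links Nme5 was higher (log2 fold change 0.20) and Gas8 lower (-0.12), and of 42 genes of the doublets Tekt4 (0.39) and Spa17 (0.28) were higher. Whether the share called differs from that of all genes was not tested.

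Of 11 genes of transcription and multiciliogenesis past the filter, 3 were called (27.3%, beside 6.30% of the whole list of 127 and 15.8% of all genes). For Rfx4 and Deup1, alone among these 127, the groups did not overlap (as for 6.60% of all genes). Apart from RFX factors the list holds genes of centriole production and docking. Rfx4, an RFX factor that is also widely expressed in neural progenitors and astrocytes, was lower in Emul, with log2 CPM of 4.52 to 4.71 in CTRL and 4.23 to 4.47 in Emul. Its log2 fold change was -0.26 (SE 0.0628, limma-voom p = 0.00124, exact permutation p = 0.0159, the smallest this test can give). Over the 9 libraries Rfx4 had r = -0.302 with the mean of the ependymal genes, beside a median of 0.630 over the 127. Among the other called genes of the list, r was -0.284 for Dynlrb1, -0.00816 for Gas8, 0.0781 for Cep164 and 0.114 for Spa17. It was 0.261 for Deup1, 0.433 for Tekt4 and 0.549 for Nme5. The other RFX factors listed, Rfx1, Rfx2 and Rfx3, were not called, with log2 fold changes of -0.06, -0.21 and -0.03 and overlapping groups. Deup1, which scaffolds the mass production of centrioles in multiciliated cells, was higher, with 1.99 to 2.28 in CTRL and 2.34 to 2.49 in Emul (log2 fold change 0.25, SE 0.0881, limma-voom p = 0.0143, exact permutation p = 0.0159). Cep164, a protein of the appendages that dock centrioles, was lower, with a log2 fold change of -0.16. By limma-voom with Benjamini-Hochberg adjustment, the adjusted p was 0.112 for Rfx4, 0.208 for Deup1 and 0.197 for Cep164. The 4 genes whose windows are printed above with a half-site of the RFX factors, Enkur, Dynlrb2, Ccdc153 and Tekt1, had log2 fold changes of 0.15, -0.05, 0.03 and 0.20. A link between Rfx4 and these genes was not tested, and the half-site is a match of letters only. Foxj1 itself was not called, and Mcidas, Gmnc and Ccno, which start multiciliogenesis, were under the filter, at 0.170 to 0.437, 0.826 to 1.48 and 0.320 to 1.33 TPM.

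Markers of neighbouring cells were read beside these values. Of the astrocyte list, 3 of 16 were lower in Emul and 0 higher (18.8%, beside 15.8% of all genes), led by Gfap, the intermediate filament protein of astrocytes and of some ventricular cells, at -0.40 (SE 0.0884, limma-voom p = 0.000613, exact permutation p = 0.0159, adjusted p = 0.102 by limma-voom with Benjamini-Hochberg adjustment). Its log2 CPM was 8.22 to 8.51 in CTRL and 7.74 to 8.14 in Emul. The log2 fold change was -0.12 for Ntsr2 and -0.16 for Sox9. In each other list, 1 gene was called and was lower in Emul. This was Prdx6 of 21 tanycyte genes (-0.13), Fmod of 15 meningeal genes (-0.38), Tmem72 of 11 choroid plexus genes (-0.12; Prlr is on this and on the hypothalamic list) and Fezf1 of 15 hypothalamic genes (-0.32). In summed TPM, the astrocyte list was at 2315 to 2460 in CTRL and 1999 to 2219 in Emul, and the tanycyte list at 428 to 463 and 371 to 424. Prdx6 alone made up 213 TPM of the tanycyte sum in CTRL and 179 TPM in Emul on average. The choroid plexus list was at 87.2 to 92.9 and 80.9 to 88.9 TPM, and the meningeal list, mostly Ptgds at 1208 TPM on average, at 1331 to 1875 and 828 to 1557 TPM. These sums are on the scale where the median of all genes was -0.10. The part of these cells in the values of the ependymal genes was not tested.

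The 10 genes have 36 quantified transcripts, of which 34 had counts and 18 passed the filter. Foxj1, Tmem212 and Dnali1 have 1 transcript each. Transcripts annotated as other than protein coding took 26.1% of the counts of Cfap126, 20.4% of Enkur, 16.9% of Ccdc153 and 11.3% of Rarres2. They were annotated as nonsense-mediated decay for Cfap126, as processed transcripts for Enkur and as retained introns for Ccdc153 and Rarres2. For Rarres2 the counts were split over 5 transcripts, the largest with 38.9%. In a limma-voom fit over 39840 transcripts, 1 of the 18 was higher in Emul at an unadjusted p-value under 0.05 (4.86% of all transcripts were higher) and 0 were lower. A single call among 18 is near the share of all transcripts. None passed Benjamini-Hochberg adjustment.

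That transcript was Cfap126-207. Its estimated counts were 0.6, 0.2, 0 and 24.2 in CTRL 1 to 4 and 53.3, 63.1, 50.8, 76.3 and 72.9 in Emul 1 to 5, without overlap (as for 5.10% of all transcripts). The limma-voom p was 0.00877 and the adjusted p by limma-voom with Benjamini-Hochberg adjustment was 0.350. Cfap126-207 passed the filter through the Emul libraries alone, since no CTRL library had a CPM over 1. The call and the lack of overlap thus rest on a transcript kept because it was high in Emul, and are given as a description only. With 3 CTRL libraries near 0, no fold is given. Cfap126-207 and Cfap126-204 share a distal first exon that ends at base 171114096 of chromosome 1, and Cfap126-201, the transcript with most counts (37.8% on average), starts at 171121661. The sequence before each start is shown from RefSeq, GRCm38.p6, in the strand of the gene and with no capitals, at chr1:171113857-171113916 for the distal and chr1:171121601-171121660 for the downstream start. The downstream window ends just before the start, whereas the distal one ends before base 171113918, where Cfap126-204 begins, and so at position -70 from the RefSeq start at 171113986 and further still from Cfap126-207, which begins at 171113989. Neither holds one of the motifs above.
Cfap126 distal: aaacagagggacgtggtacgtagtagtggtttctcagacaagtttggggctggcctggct
Cfap126 downstream: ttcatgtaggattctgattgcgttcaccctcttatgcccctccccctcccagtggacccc
Both transcripts of the distal exon together had 20.8, 34.9, 0 and 36.1 estimated counts in CTRL 1 to 4 and 72.4, 69.2, 73.3, 76.3 and 92.0 in Emul 1 to 5. This was 15.9% ± 10.9 of the counts of Cfap126 in CTRL (SD, n = 4) and 45.2% ± 6.72 in Emul (SD, n = 5). Cfap126-201 had 63.8, 51.8, 81.1 and 73.7 counts in CTRL and 50.3, 64.8, 32.7, 81.6 and 29.8 in Emul, and its log2 fold change was -0.44 with an SE of 0.296 (adjusted p = 0.618 by limma-voom with Benjamini-Hochberg adjustment). The grouping by first exon was chosen after these values were seen, so the shares are given with no test. Such counts are kallisto's division of shared reads. Of the 763 31-base words of Cfap126-207, 30 are in no other transcript of the gene, and of the 914 words of the distal pair, 209 are in no other.

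**Figure D5:**
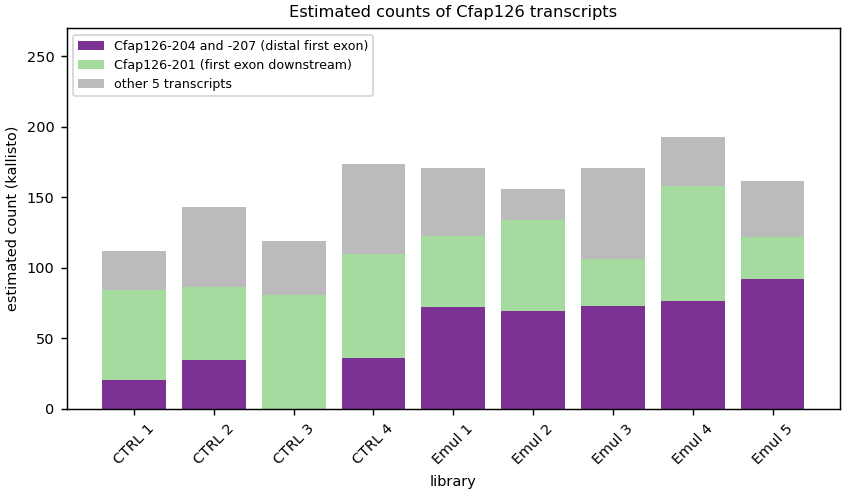
Estimated counts of Cfap126 in each library, stacked by transcripts with the distal first exon (purple), Cfap126-201 (green) and the other 5 transcripts (grey). The purple part is at most 36.1 counts in CTRL and at least 69.2 in Emul, whereas the whole columns, 112 to 174 counts in CTRL and 156 to 193 in Emul, overlap.

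The authors' own log2 CPM table gave other levels for some of the 10. Its mean was 1.04 for Rarres2 against 3.37 here, 1.89 for Ccdc153 against 3.12 and 1.5 for Dynlrb2 against 1.77. For Foxj1, whose single transcript leaves no choice, the table was higher by 0.11. In the deposited transcript counts, transcripts with older Ensembl numbers held 18.8% of the counts of Rarres2, 39.5% of Ccdc153, 76.4% of Dynlrb2 and 100% of Foxj1. Levels of Rarres2 and Ccdc153 thus depend on which transcripts are summed. In the table, 0 of 10 were called by limma-trend at an unadjusted p-value under 0.05 (13.5% of its 14592 genes), and the log2 fold change was 0.09 for Rarres2, -0.16 for Ccdc153 and 0.02 for Dynlrb2.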

How the data were processed

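RNA of 9 MBH samples was sequenced as strand-specific mRNA libraries in paired-end mode. The authors quantified transcripts with kallisto 0.46.1 on mm10 and deposited, for each of 119414 transcripts, an estimated count, a TPM value and an effective length (used for the lengthScaledTPM alternative only). They also deposited log2 CPM values for 14592 rows with a gene symbol, made with edgeR 3.40.1. Versions are from the submitters' processing notes, which also name FastQC 0.11.9. The strand setting of kallisto, the Ensembl release and how transcripts were summarised for the table are not given in the sources used here.

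Transcripts were matched by Ensembl identifier to GENCODE M21 (GRCm38, 97.8% matched). Unmatched transcripts held 1.20% to 1.27% of the counts and were left out. Estimated counts and TPM were summed per gene, and rounding of counts was applied where edgeR or DESeq2 tested them. A gene was kept if 4 or more libraries had a CPM over 1, and kept genes were tested with limma-voom (limma 3.58.1, R 4.3.3) after TMM scaling (edgeR 4.0.16), without covariates, with the filter of the study. The study's methods give a p-value under 0.05 and a 1.5-fold change, and a figure legend names the FDR, so calls are given at unadjusted and at adjusted p-values. Adjusted p-values are Benjamini-Hochberg over all genes tested. Log2 CPM of single libraries used a prior count of 2. The exact permutation test of a single gene was two-sided, compared the group means over every assignment of the labels, and cannot give a p-value under 0.0159. DESeq2 1.42.0 and the other alternatives are covered in the closing section. The fits were checked on simulated counts. Promoters come from RefSeq (GRCm38.p6). Figures and descriptive values were made with Python 3.11.15.

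Depth was 28245360 to 46067534 estimated counts, and the 10 genes had 107 to 926 counts a library (Poisson SD of 0.0533 to 0.126 on the log2 scale). Poisson values cover counting error only. By the methods there were as many litters as libraries in each group. That each library is from a litter of its own is read from these numbers and is not stated. Labels number the libraries in both groups, but libraries of the same number did not deviate together (r = -0.163, -0.0146, 0.0214 and -0.0551), so no pairing was used.

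The members and lists were chosen with earlier results of these data known. Named were the 10 genes, the 10 genes most like their mean, and in each list up to 3 called genes with the smallest p-values. The 3 genes with the highest TPM are all named for the other motile cilium list and the choroid plexus list. In the remaining lists they are named in part or not at all. Some other genes, among them those given for the hypothalamic origin of the tissue, were named outside these rules. Called genes beyond the 3 of a list and the transcripts of Cfap126 were named after their values were seen. Correlations are descriptions and carry no p-value.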

Additional observations from a re-analysis of the deposited data

Results flagged for a closer look

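In 44 groups of 4 or 5 values, the gap between an end library and its nearest neighbour was divided by the range of the group and compared with Dixon's critical value. It was exceeded in 2 groups, where chance gives about 1 in 20, or 2.2. For Ccdc153, Emul 4 read 3.5 log2 CPM, where the rest of Emul read 2.98 to 3.13, a ratio of 0.713. For the share of Cfap126 counts from the distal first exon, Emul 5 was at 56.8% and the other Emul libraries at 39.5% to 44.3%, a ratio of 0.722. The causes were not tested.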

How the results depend on the processing

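Of 210 values of single ependymal genes under the alternatives, 175 kept their direction and side of the threshold, 29 turned direction and 6 passed the unadjusted threshold. The cause of these changes was not tested. Of the turned values, 15 were without a single library and lie in the ranges below. With other settings, for Ccdc153 they were -0.01 with DESeq2, -0.16 with the authors' table, -0.003 with edgeR, -0.01 with limma-trend and -0.14 with older transcripts only. For Rarres2 they were 0.09 with the authors' table, 0.09 with older transcripts, 0.03 with the replicate block and 0.03 with sample quality weights. Dynlrb2 turned to 0.02 with the authors' table and 0.03 with older transcripts, Rsph1 to 0.04 with older transcripts, and Dnali1 to -0.01 with library size alone and -0.02 with the replicate number as a block. The replicate block changed no call of an ependymal gene (0 of 10 higher, 0 of 10 lower).

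Leaving out each library in turn, log2 fold changes ran from -0.17 to -0.04 for Foxj1, 0.14 to 0.30 for Cfap126, 0.13 to 0.34 for Tekt1, 0.06 to 0.23 for Enkur, 0.02 to 0.19 for Tmem212, -0.07 to 0.14 for Ccdc153, -0.03 to 0.12 for Dnali1, -0.15 to 0.02 for Dynlrb2, -0.08 to 0.05 for Rarres2 and -0.12 to 0.05 for Rsph1. Ependymal genes higher in Emul numbered 0 to 2. There were 2 without Emul 2 (6.90% of all genes were higher) and 1 without CTRL 3 (5.24%) or CTRL 4 (5.13%). Those lower numbered 0 to 1, with 1 without CTRL 1 (7.62% of all genes were lower). The median of the ependymal genes ran from -0.04 to 0.10. Other motile cilium genes higher numbered 3 to 10 (10 without CTRL 3, 8 without Emul 2, 3 without Emul 5) and those lower 2 to 6 (6 without CTRL 1). The shares of all genes just given are those of these settings too, except without Emul 5, where it is not given here. With sample quality weights, 1 ependymal gene was higher, Cfap126 (adjusted p = 0.293 by limma-voom with Benjamini-Hochberg adjustment). The share of all genes higher with these weights is not given here. Other motile cilium genes higher numbered 3, not 5, with DESeq2, the authors' table, library size alone, older transcripts and the replicate block. Those lower numbered 1, not 3, with the authors' table and older transcripts. The shares of all genes by direction in these settings are not given here.

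Depth limits the transcripts more than the genes, since 18 of 36 passed the filter and kallisto's repeat estimates were not used here.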
